A study of Mus musculus with 23 samples.

Results

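Gene expression in microglia of the mouse striatum was compared between 2 groups of libraries, one taken at the end of methamphetamine self-administration and one from mice that self-administered saline. The groups were chosen by the group named in each sample's labels and hold 16 of the 23 libraries of the series, 8 called Maintenance and 8 called Saline. All mice were male C57BL/6J, 9 weeks old, and could earn intravenous infusions by pressing a lever in daily sessions of 2 hr over 15 days. Maintenance mice received methamphetamine at 0.05 mg/kg per infusion, Saline mice received the vehicle, and both were sampled right after the last session. Catheter, chamber, cue light and lever training were thus shared by both groups. The remaining 7 libraries, taken after 21 days of abstinence, entered the filter on low counts and the estimate of the spread, but not the contrast. The labels name the tissue as neuronal and the cell type as microglia, give the same treatment label to every library, and do not say whether a library is 1 mouse or a pool, so p-values measure the spread between these samples, which may be partly technical.

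Microglia are the resident macrophages of the brain. They depend on signalling through the receptor Csf1r and keep a surveying state marked by genes such as P2ry12 and Tmem119. Methamphetamine is a stimulant that releases dopamine and other monoamines, and the striatum is a main target of dopamine fibres. Several groups of genes described here belong to protein folding. Hsp70 chaperones bind unfolded proteins with the help of J-domain partners, pass many of them on to Hsp90 and its co-chaperones, and are switched on by the transcription factor Hsf1 through heat shock elements.

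Microglial markers were abundant in every library. The summed level of 20 homeostatic microglia genes was 68887 to 86003 CPM (counts scaled to the library total) in Saline and 57528 to 83565 CPM in Maintenance. Total counts per library were 55378997 to 84640226 in Saline and 54970954 to 94562470 in Maintenance (two-sided exact permutation test of the means, p = 0.343, adjusted over 4 library measures p = 0.442). The number of genes with at least 1 count was 14991 to 16975 in Saline and 12459 to 17034 in Maintenance (exact permutation p = 0.0476, adjusted p = 0.19), and the share of mitochondrially encoded counts was 0.821 to 1.32% and 0.847 to 1.12% (exact permutation p = 0.442). A total of 3 Maintenance libraries stood apart. Maintenance 6 and 7 had the fewest genes detected and lay far from all others on the first 2 principal components. Maintenance 8 carried 43916 CPM of choroid plexus and ependymal markers, where the other Maintenance libraries had at most 20.9 CPM and the Saline libraries at most 27.4 CPM, of which Ttr made up 40528 CPM. The oligodendrocyte markers other than Enpp2 summed to 4703 to 9576 CPM in Saline, 6568 to 10319 CPM in the other 7 Maintenance libraries and 4713 CPM in Maintenance 8, so that its sum of 35841 CPM with Enpp2 was mostly that gene (31127 CPM). The neutrophil markers other than Csf3r, which made up most of the sum in most libraries, summed to 50.1 to 958 CPM in Saline, highest in Saline 6, and 9.97 to 195 CPM in Maintenance, where Mpo and Elane were at 0 in all 8 libraries. Erythrocyte marker sums were 162 to 691 CPM in Saline and 59.98 to 503 CPM in Maintenance (6 of 6 tested genes below 0, median log2 fold change −1.15, 0 called and 4 with an unadjusted p under 0.05 in edgeR, 11.8% of all genes having such a p). Monocyte marker sums were 49.6 to 234 CPM and 38.9 to 113 CPM (8 of 10 below 0, median −0.81, 0 called and 3 with such a p). Oligodendrocyte markers leaned the other way, with 14 of 16 above 0 and a median of 0.68. Only Enpp2 was called among them (6.25%), and 7 had such a p. Of 11 border-associated macrophage markers 9 lay above 0 (median 0.30, 0 called and 3 with such a p). Endothelial and mural marker sums were 415 to 1380 CPM in Saline and 332 to 2074 CPM in Maintenance. Maintenance 6 (2074 CPM) and Maintenance 7 (1592 CPM) lay above every Saline library there. Of these 12 markers 11 lay above 0 (median 0.28, 0 called and 0 with such a p). Astrocyte markers had 9 of 10 above 0 (median 0.24, 0 called and 1 with such a p). The part of these other cells in the results below was not tested, and results that rest on 1 of these libraries are given with and without it.

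**Figure D1:**
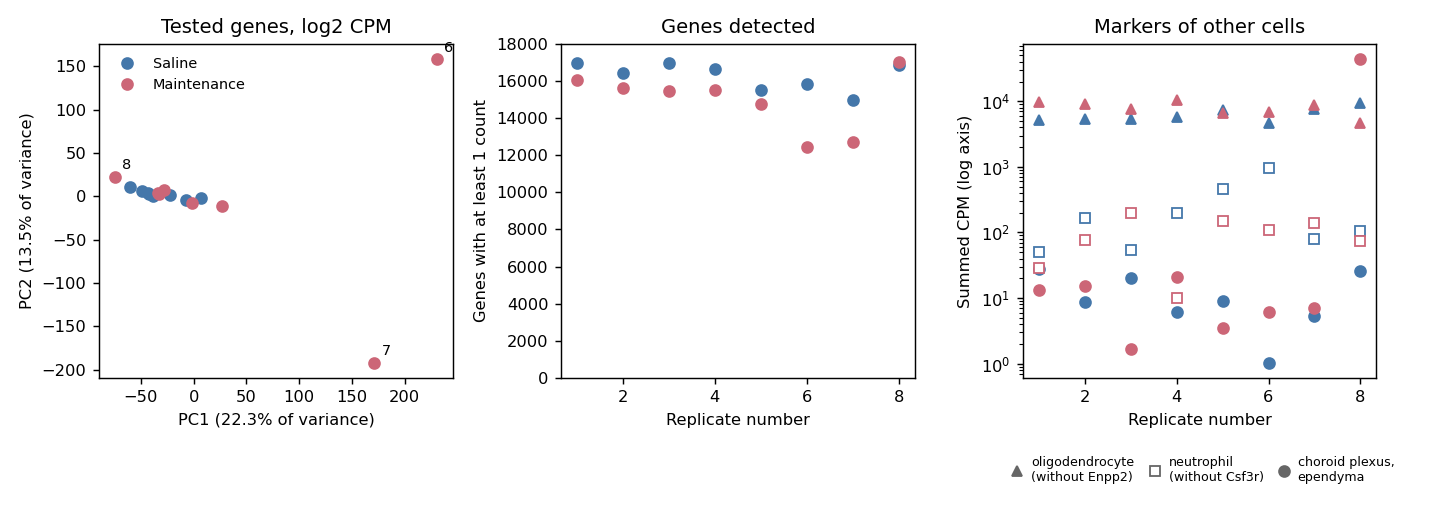
Left, the 8 Saline and 8 Maintenance libraries on the first 2 principal components of log2 CPM over the tested genes (percent of variance on each axis; Maintenance 6, 7 and 8 are numbered); middle, genes with at least 1 count in each library by replicate number; right, summed CPM (log axis) of oligodendrocyte markers without Enpp2, neutrophil markers without Csf3r, and choroid plexus and ependymal markers by replicate number, in the same colours. Maintenance 6 and 7 lie apart from the others in the left plot, and Maintenance 8 is the only library high in choroid plexus and ependymal markers (43916 CPM).

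Of 35976 genes in the table, 16121 had enough counts to be tested. With edgeR's quasi-likelihood test, 114 genes (0.707% of those tested) differed between Maintenance and Saline at a Benjamini-Hochberg adjusted p under 0.05 and are called changed here. Of these, 54 were higher (0.335%) and 60 lower (0.372%) in Maintenance, and 1900 genes (11.8%) had an unadjusted p under 0.05. DESeq2 called 2.34% and limma voom 2.56% of the genes they tested, the shares against which their counts below are to be read. Most shifts were small, with a median size of 0.52 on the log2 scale among the higher genes and 0.55 among the lower ones, against a median log2 fold change of 0.01 over all genes tested. Only 10 higher and 7 lower genes moved by more than 1 on the log2 scale. In 106 of the 114 genes, all 8 Maintenance libraries lay on the called side of the Saline median. That count was made on genes chosen by the same libraries and carries no test. Its share over all tested genes was not taken. The 8 libraries of one group lay entirely above or below the 8 of the other in 67 tested genes (0.416%), 27 of them higher and 40 lower in Maintenance, and 41 of these 67 were called. In this kind of bulk measurement, fewer cells that carry a transcript and less of it per cell cannot be told apart.

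Single libraries weighed differently on these calls. The number of called genes was 42 when Saline 3 was left out, 60 for Saline 2, 62 for Saline 1, 70 for Saline 4 and 197 for Saline 8, and lay between 42 and 197 for every other library. A core of 41 genes (22 higher, 19 lower) kept an adjusted p under 0.05 when any 1 of the 23 libraries was left out, and 23 of them (14 higher, 9 lower) kept it in all of 35 alternative fits. The other 73 lost the call without at least 1 library, 72 of them without Saline 3, at adjusted p values of 0.0512 to 0.216 there. The text below is built on the core genes and says where a called gene it describes is outside the core.

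**Figure D2:**
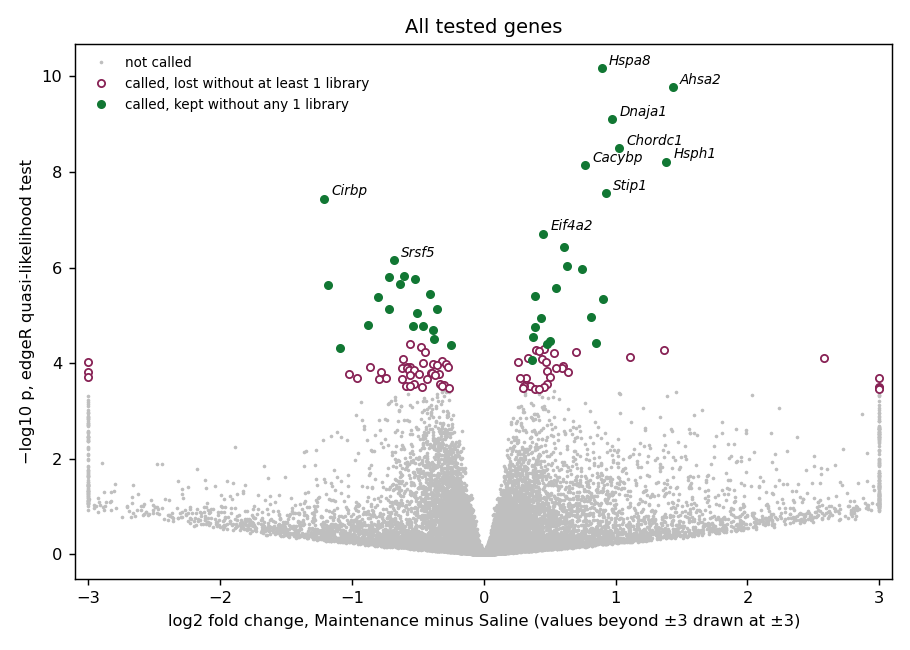
Each point is 1 of 16121 tested genes, with the log2 fold change of Maintenance against Saline on the horizontal axis and −log10 of the unadjusted p of edgeR's quasi-likelihood test on the vertical axis. Filled circles are the 41 called genes that kept the call without any 1 library and open circles the other 73; chaperone genes hold the highest positions on the right and Cirbp the highest on the left.

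Cytosolic chaperones were the group with the smallest p-values. Hspa8, Hsph1 and Dnaja1 of the Hsp70 system and 6 genes of the Hsp90 system rose in Maintenance, by 1.5-fold to 2.7-fold. Of 26 Hsp70 genes tested, 3 were called higher and 0 lower (11.5% called, against 0.707% of all genes), 13 had an unadjusted p under 0.05, and the list's median was 0.23 on the log2 scale. Of 16 Hsp90 and co-chaperone genes, 6 were called higher and 0 lower (37.5%), 14 lay above 0, and the median was 0.22. Together with Cacybp, Hspa5 and the chaperonin genes described below, 14 genes of this kind were called higher. Each lay above the Saline median in all 8 Maintenance libraries, the same libraries by which these genes were called.

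Hspa8, the constitutive cytosolic Hsp70, ran from 1542 to 2102 CPM in Saline (median 1835) and from 2815 to 4128 CPM in Maintenance (median 3446). No Maintenance library reached down to the highest Saline library, and the gene rose 1.86-fold (log2 fold change 0.90, SE 0.09, adjusted p = 1.1e-06). Hsph1, an Hsp110 protein that exchanges the nucleotide of Hsp70, was at 30.4 to 38.3 CPM in Saline (median 33.5) and 61.7 to 104.6 CPM in Maintenance (median 96.9). These groups did not overlap either, and 3 Maintenance libraries lay well under the other 5 (2.61-fold, SE 0.16 on the log2 scale, adjusted p = 1.95e-05). Dnaja1, a J-domain partner that delivers clients to Hsp70, went from 101.3 to 134.6 CPM (median 124) in Saline to 207 to 274 CPM (median 235) in Maintenance, again without overlap (log2 fold change 0.98, SE 0.10, adjusted p = 4.23e-06).

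Among the Hsp90 genes, Hsp90ab1, the constitutive cytosolic Hsp90, was at 740 to 1039 CPM in Saline (median 852.5) and 1172 to 1824 CPM in Maintenance (median 1375), with no overlap (log2 fold change 0.75, SE 0.12, adjusted p = 0.00132). Ahsa2, a relative of the activator of the Hsp90 ATPase, showed the largest rise of the core genes, from 12.4 to 22.0 CPM (median 15.2) in Saline to 32.9 to 55.5 CPM (median 41.9) in Maintenance (2.7-fold, log2 fold change 1.43, SE 0.14, adjusted p = 1.37e-06). Stip1, which links Hsp70 to Hsp90, was at 58.7 to 76.0 CPM in Saline (median 63.3) and 100.1 to 179.8 CPM in Maintenance (median 121; log2 fold change 0.92, SE 0.12, adjusted p = 6.43e-05). In both genes every Maintenance library exceeded every Saline library. Chordc1, a co-chaperone of Hsp90, followed the same pattern, at 58.1 to 87.8 CPM (median 74.3) in Saline and 119.8 to 176 CPM (median 152) in Maintenance (log2 fold change 1.03, SE 0.12, adjusted p = 1.29e-05). Fkbp4, an immunophilin of steroid receptor complexes, rose from a Saline range of 102.6 to 152 CPM (median 123.5) to 169 to 235 CPM (median 190.0), without overlap (log2 fold change 0.61, SE 0.09, adjusted p = 0.000612). The stress-inducible Hsp90aa1 was at 188 to 310.1 CPM in Saline (median 216) and 262 to 424 CPM in Maintenance (median 358), so that the groups overlapped (log2 fold change 0.59, SE 0.13, adjusted p = 0.0286). Hsp90aa1 is outside the core: it missed the threshold without Saline 2, 3, 4, 5 or 6 or Maintenance 2 or 4 (adjusted p = 0.052 to 0.0673).

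Cacybp, an adaptor of the Siah ubiquitin ligases that also binds S100 proteins, was at 51.3 to 79.1 CPM in Saline (median 68.4) and 100.3 to 141 CPM in Maintenance (median 109; log2 fold change 0.77, SE 0.09, adjusted p = 1.95e-05). Cct4, a subunit of the TRiC ring that folds actin and tubulin, was at 178 to 211 CPM (median 195) in Saline and 234 to 361 CPM (median 247) in Maintenance (log2 fold change 0.43, SE 0.08, adjusted p = 0.00659). Neither gene's groups overlapped, and the highest Cct4 value came from Maintenance 6, with the other Maintenance libraries at 280.3 CPM or less. Hspd1, the mitochondrial Hsp60, was at 153 to 178 CPM in Saline (median 168) and 188 to 241 CPM in Maintenance (median 224), also apart (log2 fold change 0.39, SE 0.07, adjusted p = 0.00297). Of 14 TRiC and mitochondrial chaperonin genes, 3 were called higher and 0 lower (21.4%), 12 lay above 0, and the list's median was 0.18. The third call, Cct5 (log2 fold change 0.27, SE 0.06, adjusted p = 0.0359), is outside the core and was lost without Saline 1 to 5 or Maintenance 1, 2, 4 or 6 (adjusted p = 0.0563 to 0.0895). Tcp1, another subunit of the ring, did not pass (log2 fold change 0.31, adjusted p = 0.0574). With the mean levels of oligodendrocyte and neutrophil markers as covariates, Hspd1 did not pass (log2 fold change 0.32, adjusted p = 0.116), nor did Hsp90aa1 (0.46, 0.257) and Cct5 (0.22, 0.275).

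The endoplasmic reticulum showed a narrower picture. Hspa5, its Hsp70, was at 1833 to 2468 CPM in Saline (median 2326) and 2456 to 3361 CPM in Maintenance (median 2859), with the lowest Maintenance library just under the highest Saline library (log2 fold change 0.38, SE 0.07, adjusted p = 0.0134; 0.0666 with only the 17 libraries of the second table, a deposited table of the same counts for fewer libraries). It was the only one of 22 genes of the unfolded protein response called higher and 0 were called lower (4.55%). The list's median was 0.04, with 12 genes above and 10 below 0, and its log2 fold changes ran from −1.46 to 0.38. An unadjusted p under 0.05 was found for 8 of the 22 genes, against 11.8% of all genes tested. Hsp90b1 (log2 fold change 0.22, adjusted p = 0.0959) and Herpud1 (0.26, adjusted p = 0.101) did not pass. Outside that list, Rrbp1, which anchors ribosomes at that membrane, was at 117 to 143 CPM in Saline (median 134) and 175 to 234 CPM in Maintenance (median 199.5), without overlap (log2 fold change 0.63, SE 0.10, adjusted p = 0.00124). P4ha1, a collagen prolyl hydroxylase subunit of the same compartment, rose by less (log2 fold change 0.37, SE 0.08, adjusted p = 0.025). With the marker covariates P4ha1 did not pass (0.39, adjusted p = 0.0836).

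The inducible Hsp70 genes Hspa1a and Hspa1b did not pass. Hspa1a was at 275 to 583 CPM in Saline (median 394) and 444 to 927 CPM in Maintenance (median 755), so that the ranges overlapped although all 8 Maintenance libraries exceeded the Saline median (log2 fold change 0.77, SE 0.25, adjusted p = 0.154). Its neighbour Hspa1b, nearly identical in sequence, was far lower, at 2.76 to 14.6 CPM and 4.21 to 21.3 CPM (log2 fold change 0.78, SE 0.35, adjusted p = 0.37), and the split of reads between the 2 copies is uncertain. Of 9 small heat-shock proteins and HSF factors, 8 lay above 0 and 0 passed with edgeR, 3 had an unadjusted p under 0.05, and DESeq2 and limma voom each called 1. The list's median of 0.77 fell to 0.18 without Maintenance 8. Cryab (log2 fold change 1.22, SE 0.35, adjusted p = 0.119) and Hspb1 (0.92, SE 0.28, adjusted p = 0.122) had the smallest p-values there, and Hsf1 itself was at 36.0 to 49.8 CPM in Saline and 36.5 to 64.9 CPM in Maintenance (log2 fold change 0.17, SE 0.11, adjusted p = 0.62).

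**Figure D3:**
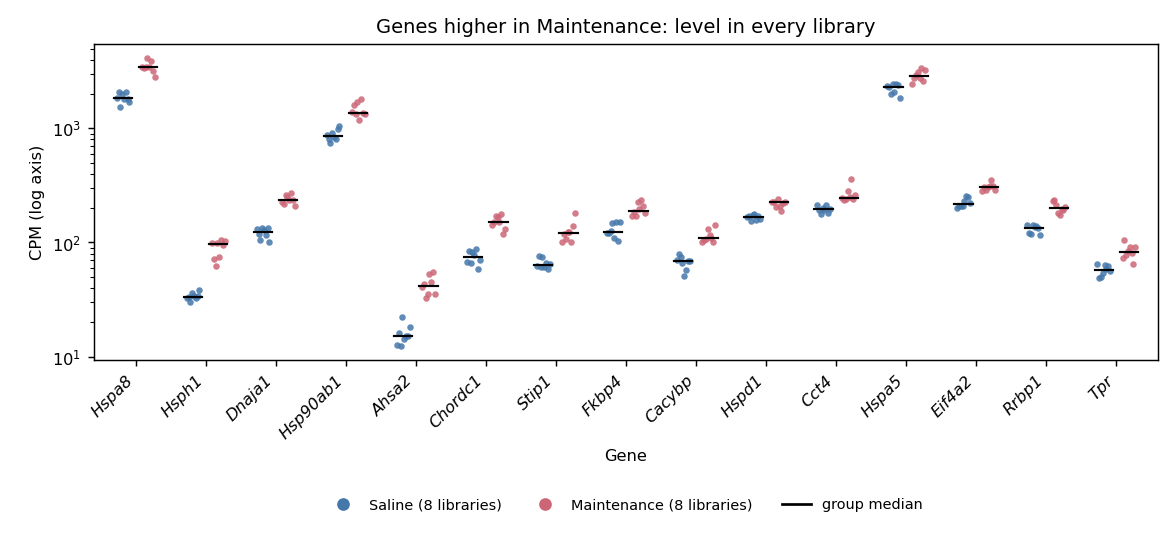
CPM on a log axis for 15 genes higher in Maintenance, with 1 point per library and a bar at each group's median. For Hspa8, Hsph1, Dnaja1, Hsp90ab1, Ahsa2, Chordc1, Stip1, Fkbp4, Cacybp, Hspd1 and Cct4 every Maintenance point lies above every Saline point; the lowest Maintenance point of Hspa5 (2456 CPM) lies just under its highest Saline point (2468 CPM).

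Heat shock elements are built from the unit GAA and its reverse TTC in alternation, so 2 units read GAANNTTC or TTCNNGAA. Both patterns, which are their own reverse complements, were searched in RefSeq promoter windows (GRCm38.p6, 250 bases before to 50 after an annotated start). Of the 13 called genes of the Hsp70, Hsp90, chaperonin and endoplasmic reticulum lists, 9 have a window, and 6 of these 9 (66.7%) held at least 1 pair of units, against 14.5% of the 11881 tested genes with a window. A run of 3 alternating units stood in Chordc1, Hsph1 and Hspd1 (33.3%), against 0.606% of tested genes with a window. The uncalled genes of the same lists were not counted as a set. These shares therefore do not tell called chaperones from chaperones in general. Among the other called genes, a pair stood in 4 of 31 higher genes with a window (12.9%), with a run of 3 units in the splicing factor gene Tra2b, and in 4 of 46 lower genes (8.7%), none with 3 units. The windows of Ahsa2, Stip1, Cacybp and Hspa5 hold no such pair. A gene was counted when any of its windows held a match. Dnaja1, Hspd1 and Cct5 also have windows at other annotated starts, without a pair. For the 6 chaperone genes and Tra2b, the stretches around the matches are shown to let the spacing of the units be seen, with matched bases in capitals, each 5′ to 3′ on the gene's strand; a further match of Chordc1, starting 33 bases after its start site, is not shown:
Dnaja1, chr4:40722304-40722391, plus strand: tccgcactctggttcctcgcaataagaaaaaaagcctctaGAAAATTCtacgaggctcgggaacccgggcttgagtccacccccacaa
Chordc1, chr9:18292223-18292296, plus strand: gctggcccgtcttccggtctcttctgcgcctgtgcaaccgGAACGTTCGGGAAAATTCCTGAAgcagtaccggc
Hsph1, chr5:149636286-149636409, minus strand: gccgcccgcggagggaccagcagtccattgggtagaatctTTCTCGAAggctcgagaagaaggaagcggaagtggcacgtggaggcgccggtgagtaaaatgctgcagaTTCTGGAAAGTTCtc
Fkbp4, chr6:128438760-128438847, minus strand: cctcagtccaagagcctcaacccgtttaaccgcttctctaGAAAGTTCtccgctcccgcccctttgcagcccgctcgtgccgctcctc
Hspd1, chr1:55088019-55088116, minus strand: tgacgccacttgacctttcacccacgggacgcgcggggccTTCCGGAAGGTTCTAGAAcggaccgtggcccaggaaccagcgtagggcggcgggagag
Cct5, chr15:31601833-31601920, minus strand: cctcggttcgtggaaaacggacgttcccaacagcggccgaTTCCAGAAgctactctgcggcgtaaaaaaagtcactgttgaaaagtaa
Tra2b, chr16:22266160-22266252, minus strand: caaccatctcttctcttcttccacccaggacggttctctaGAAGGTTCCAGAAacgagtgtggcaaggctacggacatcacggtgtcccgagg
These are matches of letters in a window and no measurement of binding.

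Genes of RNA processing moved in both directions. Of 33 SR proteins and hnRNPs tested, 8 were called (24.2%), 3 higher and 5 lower, 18 had an unadjusted p under 0.05, and the list's median was −0.04. Tra2a, a splicing activator, was at 13.3 to 23.5 CPM in Saline (median 18.8) and 28.3 to 39.4 CPM in Maintenance (median 33.2), with no overlap (log2 fold change 0.81, SE 0.15, adjusted p = 0.00637). Its relative Tra2b (log2 fold change 0.32, adjusted p = 0.0359) and Srsf7 (0.42, adjusted p = 0.0198) were also higher but are outside the core: Srsf7 was lost without Saline 3 (0.0522), and Tra2b without Saline 1 to 4 or Maintenance 2, 3, 4 or 7 (0.0513 to 0.0895). Srsf5, an SR protein of constitutive and regulated splicing, went the other way, from 126 to 206 CPM (median 155) in Saline to 71.0 to 122 CPM (median 102) in Maintenance, again without overlap (log2 fold change −0.68, SE 0.11, adjusted p = 0.00103). Ptbp1, the polypyrimidine tract-binding repressor of splicing, fell without overlap, at 98.1 to 134.5 CPM (median 112.5) in Saline and 58.3 to 89.6 CPM (median 80.2) in Maintenance (log2 fold change −0.51, SE 0.09, adjusted p = 0.00544). Maintenance 6 was its lowest library, and the other 7 were at 77.9 CPM or more. Hnrnpk, an abundant hnRNP, showed the smallest called shift of the core (log2 fold change −0.24, SE 0.05, adjusted p = 0.0167). Its call was lost when only the 2 groups were fitted and in the 17 libraries of the second table. With the marker covariates, Tra2a (log2 fold change 0.84, adjusted p = 0.0601), Ptbp1 (−0.53, 0.0581), Hnrnpk (−0.27, 0.0601), Srsf7 (0.39, 0.17) and Tra2b (0.31, 0.211) did not pass, at folds close to those above.

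Ewsr1, an RNA-binding protein that couples transcription to splicing, fell from 257 to 359 CPM in Saline (median 288.5) to 200.3 to 274 CPM in Maintenance (median 215; log2 fold change −0.41, SE 0.07, adjusted p = 0.00285). Its highest library in Maintenance lay above the 2 lowest Saline libraries, while all 8 lay under the Saline median.

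Cirbp and Rbm3, the RNA-binding proteins whose transcripts are known to rise in mild cold, fell together and made up the whole of their list. Cirbp had the smallest p of all lower genes, at 53.3 to 95.9 CPM in Saline (median 76.7) and 21.8 to 50.6 CPM in Maintenance (median 31.4). Its highest Maintenance library lay just under its lowest Saline library (0.432-fold, log2 fold change −1.21, SE 0.16, adjusted p = 7.37e-05). Rbm3 was at 68.4 to 108 CPM (median 80.6) in Saline and 34.9 to 61.2 CPM (median 51.95) in Maintenance, also without overlap (log2 fold change −0.72, SE 0.13, adjusted p = 0.00471). Both kept the call in all 35 fits.

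Tpr, the basket protein of the nuclear pore, was at 48.5 to 64.2 CPM in Saline (median 57.3) and 64.4 to 105.8 CPM in Maintenance (median 82.5; log2 fold change 0.55, SE 0.09, adjusted p = 0.00224), with the 2 groups only just apart. It was 1 of 27 nuclear pore genes called (3.70%), and that list's median was 0.02. Banp, a transcription factor that binds unmethylated motifs, was at 9.83 to 28.2 CPM in Saline (median 16.6) and 25.3 to 36.6 CPM in Maintenance (median 31.0; log2 fold change 0.90, SE 0.16, adjusted p = 0.00323). The only Saline library within its Maintenance range was Saline 6, and the others were at 17.8 CPM or less. Eif4a2, an RNA helicase of translation initiation, was at 199.97 to 254.5 CPM and 284 to 349 CPM (medians 217 and 306), with no overlap (log2 fold change 0.45, SE 0.06, adjusted p = 0.000353). It was the only one of 32 translation factors called (3.12%), on a list median of −0.04. Rbm5 (log2 fold change 0.48, adjusted p = 0.0162) and Acin1 (0.50, adjusted p = 0.0152), both tied to splicing and apoptosis, belong to the core with no overlap between groups; with the marker covariates neither passed, at log2 fold changes of 0.45 and 0.50 (adjusted p = 0.143 and 0.112). The histone gene Hist1h2bc also rose (log2 fold change 0.85, adjusted p = 0.0162), but its reads can be shared with near-identical histone genes, 1 library, Maintenance 8, reached 202 CPM where the other 7 were at 62.7 to 87.2 CPM, and it missed the threshold when only the 2 groups were fitted (adjusted p = 0.0533). None of 51 chromatin regulators passed with edgeR, 10 had an unadjusted p under 0.05, and DESeq2 called 2 and limma voom 1; 36 of them lay above 0 and their median was 0.11.

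Serine and one-carbon metabolism held 3 lower genes of 16 tested (18.8%) and 0 higher, with a list median of −0.12. Phgdh, the first enzyme of serine synthesis, was at 144 to 188 CPM in Saline (median 159.7) and 94.7 to 129 CPM in Maintenance (median 115), without overlap (log2 fold change −0.52, SE 0.08, adjusted p = 0.00171). Mthfd2, the mitochondrial folate enzyme, was at 17.9 to 43.6 CPM (median 24.7) and 6.68 to 14.9 CPM (median 11.8), also apart (0.441-fold, log2 fold change −1.18, SE 0.20, adjusted p = 0.00211). Shmt2, which passes the one-carbon unit from serine to folate in mitochondria, was lower too (log2 fold change −0.62, SE 0.14, adjusted p = 0.0359) but is outside the core and was lost without Saline 1, 2, 3, 4 or 7 or Maintenance 1, 2, 6, 7 or 8 (adjusted p = 0.0568 to 0.0895). Psat1, the enzyme after Phgdh, lay on the other side without passing (log2 fold change 0.36, SE 0.15, adjusted p = 0.341).

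Aminoacyl-tRNA synthetases, which charge tRNAs with amino acids, held 3 lower genes of 37 (8.11%) and 0 higher, on a median of −0.03. Aars, for alanine, was at 133 to 171 CPM in Saline (median 153) and 110.4 to 141 CPM in Maintenance (median 116; log2 fold change −0.35, SE 0.06, adjusted p = 0.00471), with a small overlap. Lars, for leucine, was at 77.5 to 116 CPM (median 87.3) and 52.5 to 75.3 CPM (median 64.4), without one (log2 fold change −0.46, SE 0.09, adjusted p = 0.00873). Mars, for methionine, shares its locus with Ddit3 on the other strand and is outside the core (log2 fold change −0.58, adjusted p = 0.0286), lost without Saline 1, 2, 3, 4, 5 or 7 or Maintenance 1, 2, 4 or 6 (0.0518 to 0.067). With the marker covariates Aars (log2 fold change −0.30, adjusted p = 0.114), Lars (−0.46, 0.0819) and Mars (−0.46, 0.229) did not pass. Many of these metabolic genes are known targets of the transcription factor ATF4. Of 20 ATF4 regulators and amino acid transporters, 0 passed with edgeR, 6 had an unadjusted p under 0.05, and DESeq2 and limma voom each called 1, higher. Their median was −0.18. Asns, asparagine synthetase, was at 3.95 to 12.3 CPM in Saline and 0 to 3.67 CPM in Maintenance, apart but with a wide error (log2 fold change −1.95, SE 0.84, adjusted p = 0.342), and Ppp1r15a pointed up (0.44, SE 0.12, adjusted p = 0.0747).

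An element of the form TGATGNAA, to which ATF4 and its partners bind, was searched on both strands of the same promoter windows. It stood in 1 of the 4 called serine, one-carbon and synthetase genes with a window (25.0%), in 4 of all 46 called lower genes with a window (8.70%) and in 3.06% of tested genes with a window. The 1 gene is Aars, whose 2 matches lie on the opposite strand and are shown with the element's reverse complement in capitals (GRCm38.p6, RefSeq):
Aars, chr8:111033690-111033871, plus strand: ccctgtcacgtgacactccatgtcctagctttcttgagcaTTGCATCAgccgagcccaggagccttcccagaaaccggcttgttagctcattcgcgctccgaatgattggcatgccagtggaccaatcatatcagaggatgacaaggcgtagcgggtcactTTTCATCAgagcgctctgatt

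Of 6 colony-stimulating factor receptor genes 2 were called lower and 0 higher (33.3%), on a median of −0.18. Csf2ra, the ligand-binding chain of the GM-CSF receptor, was at 66.4 to 91.5 CPM in Saline (median 85.7) and 37.8 to 69.7 CPM in Maintenance (median 54.8; log2 fold change −0.61, SE 0.10, adjusted p = 0.00169). The overlap came from Saline 8, at 66.4 CPM, while the other Saline libraries were at 82.2 CPM or more. Csf3r, the G-CSF receptor, was at 224 to 308.5 CPM (median 285) and 179.7 to 227 CPM (median 220.3; log2 fold change −0.39, SE 0.07, adjusted p = 0.00997). It did not pass with the marker covariates (log2 fold change −0.32, adjusted p = 0.135), whose neutrophil mean includes Csf3r, nor with Csf3r and Enpp2 left out of the means (−0.34, adjusted p = 0.123). Neutrophils also carry Csf3r, and all 12 neutrophil markers tested lay below 0 in Maintenance (median −1.14, 1 called, which is Csf3r itself). The part of neutrophil RNA in this result was not tested. Csf1r, the receptor on which microglia depend, did not pass (log2 fold change −0.20, SE 0.09, adjusted p = 0.392). Slamf9, an orphan receptor of the SLAM family, fell without overlap, at 82.5 to 128 CPM (median 103.7) in Saline and 56.0 to 77.6 CPM (median 69.6) in Maintenance (log2 fold change −0.54, SE 0.10, adjusted p = 0.00873; 0.0577 without Maintenance 6, 7 and 8 together). Cd180, a Toll-like receptor relative, is outside the core (log2 fold change −0.47, adjusted p = 0.0181; 0.0522 without Saline 3), and was the only call among 19 Toll-like receptor genes (5.26%).

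Etv5, an ETS factor induced downstream of growth factor receptors, was at 105.9 to 161 CPM in Saline (median 140.2) and 69.7 to 102 CPM in Maintenance (median 93.9), without overlap (log2 fold change −0.64, SE 0.11, adjusted p = 0.00211). With the marker covariates it did not pass (−0.52, adjusted p = 0.109). It was the 1 call among 12 Etv and ERK feedback genes (8.33%). Nubp1, a scaffold of iron-sulfur cluster assembly, was at 32.0 to 48.9 CPM and 10.2 to 28.2 CPM (medians 43.9 and 24.2), with Maintenance 7 lowest and the other Maintenance libraries at 21.2 CPM or more (log2 fold change −0.87, SE 0.17, adjusted p = 0.00873). With the marker covariates Nubp1 did not pass (−0.88, adjusted p = 0.0773). Gusb, the lysosomal beta-glucuronidase, was lower (log2 fold change −0.38, adjusted p = 0.0145), while Atp6v1d, a subunit of the proton pump of the same organelle, was higher and outside the core (0.45, adjusted p = 0.019; 0.0525 without Saline 3). Gusb missed the threshold in the fit of 2 groups only (0.0524), without Maintenance 6, 7 and 8 (0.0859) and with the marker covariates (0.0601; log2 fold change −0.41), but passed with Enpp2 and Csf3r left out of the marker means (0.0466). The other 29 genes of the list of lysosomal hydrolases and V-ATPase subunits did not pass, and the list's median was −0.04.

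**Figure D4:**
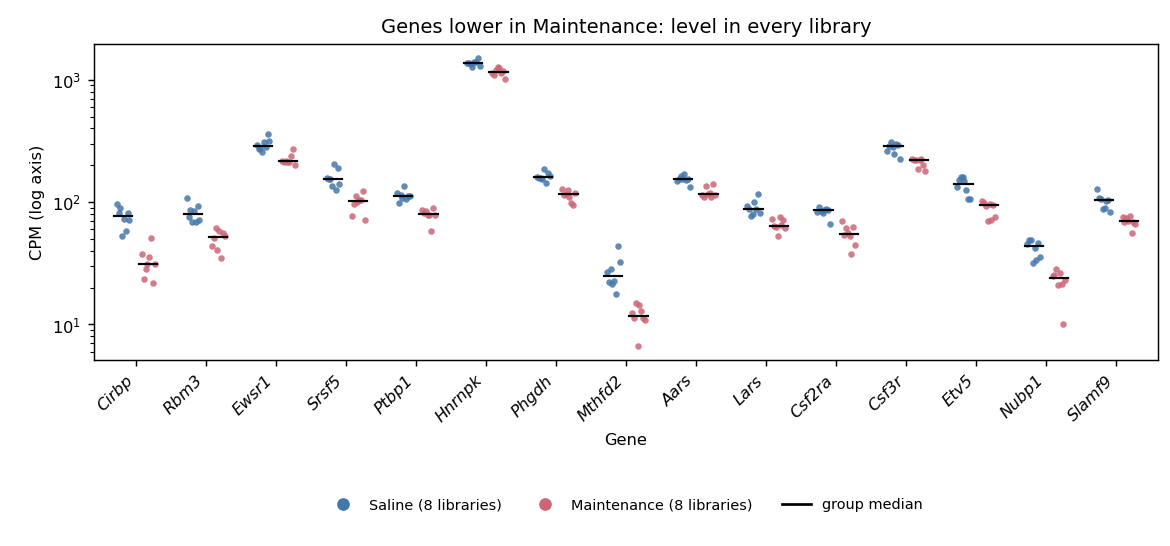
CPM on a log axis for 15 genes lower in Maintenance, with 1 point per library and a bar at each group's median. Every Maintenance point lies under every Saline point for Cirbp, Rbm3, Srsf5, Ptbp1, Phgdh, Mthfd2, Lars, Etv5, Nubp1 and Slamf9, and the groups overlap for Ewsr1, Hnrnpk, Aars, Csf2ra and Csf3r.

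Genes that follow stress hormones, lipids and inflammation showed few calls. Tsc22d3, a glucocorticoid-induced leucine zipper protein, was at 424 to 755 CPM in Saline (median 612) and 741 to 1226 CPM in Maintenance (median 823), highest in Maintenance 3 (log2 fold change 0.53, SE 0.11, adjusted p = 0.02). Tsc22d3 is outside the core (0.0522 without Saline 3). It was the only call among 15 glucocorticoid-responsive genes (6.67%). Fkbp5, another such gene, was at 42.7 to 124 CPM and 38.1 to 80.8 CPM, with Saline 6 highest (log2 fold change −0.13, SE 0.18, adjusted p = 0.876). Without Saline 6 its log2 fold change was 0.09. Glul, glutamine synthetase, rose and belongs to the core, at 576 to 770 CPM in Saline (median 668) and 647 to 963 CPM in Maintenance (median 892); Maintenance 8 was lowest and the other 7 were at 845 CPM or more (log2 fold change 0.39, SE 0.07, adjusted p = 0.00873). With the marker covariates neither Glul (0.38, adjusted p = 0.102) nor Tsc22d3 (0.60, adjusted p = 0.0601) passed. Apoe, the main lipid carrier of glia, was higher at 1589 to 2848 CPM against 1236 to 1913 CPM, but outside the core (log2 fold change 0.48, SE 0.11, adjusted p = 0.0456). Its call was lost in 14 of the 23 fits without a single library (0.0506 to 0.11), among them those without Saline 3, Maintenance 4, Maintenance 6 and Maintenance 8. Apoe did not pass with the marker covariates either (0.56, adjusted p = 0.102). It was the only call among 22 disease-associated microglia genes (4.55%) and among 22 genes of lipid efflux and cholesterol synthesis (4.55%).

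None of 25 cytokine and NF-kB feedback genes passed with edgeR, 5 had an unadjusted p under 0.05, and DESeq2 called 0 and limma voom 1. Il1b was at 32.4 to 67.4 CPM in Saline and 40.1 to 72.8 CPM in Maintenance (log2 fold change 0.11, SE 0.15, adjusted p = 0.882). Tnf was at 173 to 330.5 CPM and 128 to 254 CPM (log2 fold change −0.13, SE 0.14, adjusted p = 0.815), with a sign that turned in other fits, to 0.01 without Maintenance 6, 7 and 8. The 22 immediate early genes gave 0 calls with edgeR and DESeq2 and 1 with limma voom, and 4 had an unadjusted p under 0.05. Fos was abundant in both groups, at 4180 to 5701 CPM and 3921 to 6167 CPM (log2 fold change 0.04, SE 0.08, adjusted p = 0.934). Of 21 clock genes 0 passed with edgeR, 6 had an unadjusted p under 0.05, DESeq2 called 2 and limma voom 1. Per1 (log2 fold change 0.20, SE 0.16, adjusted p = 0.712) and Nr1d1 (−0.15, SE 0.19, adjusted p = 0.87; 0.01 in the 17 libraries of the second table) overlapped widely between groups.

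Several lists leaned to the lower side with few or no calls. All 79 cytosolic ribosomal protein genes had a log2 fold change below 0, from −0.46 to −0.03 with a median of −0.26, and 52 had an unadjusted p under 0.05. The sign held for all 79 with RLE and upper-quartile scaling. Without Maintenance 6, 7 and 8 the median was −0.15, with 77 of 79 below 0. Only Rps2 passed (1.27% of the list, log2 fold change −0.34, SE 0.08, adjusted p = 0.0329), and it is outside the core, lost without Saline 1, 2, 3, 5, 6 or 7 or Maintenance 2, 6 or 7 (0.0512 to 0.0863). Its reads and those of other ribosomal protein genes can be shared with processed pseudogenes. All 8 phagocyte NADPH oxidase genes, whose enzyme releases superoxide, had a log2 fold change below 0 with a median of −0.23; 0 passed with edgeR, 5 had an unadjusted p under 0.05, DESeq2 called 2 and limma voom 1, all lower. With RLE scaling 1 of the 8 lay above 0. Of 33 genes of actin nucleation and motility, 27 lay below 0 on a median of −0.11, and 13 had an unadjusted p under 0.05. Only Arpc4, a subunit of the Arp2/3 complex, passed (3.03%, log2 fold change −0.27, SE 0.06, adjusted p = 0.0286). Arpc4 is outside the core and was lost without Saline 1, 2, 3, 4 or 6 or Maintenance 2 (0.0502 to 0.0562). Neither Rps2 (log2 fold change −0.39, adjusted p = 0.106) nor Arpc4 (−0.28, 0.135) passed with the marker covariates.

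Homeostatic microglia genes gave 0 calls of 20 with edgeR, DESeq2 and limma voom, and 6 had an unadjusted p under 0.05. Their log2 fold changes ran from −0.29 to 0.05, with 17 below 0 and a median of −0.12, which was −0.08 with 13 below 0 without Maintenance 8. Tmem119 was at 3322 to 5084 CPM in Saline and 3195 to 4522 CPM in Maintenance (log2 fold change −0.11, SE 0.09, adjusted p = 0.684). P2ry12, a purine receptor that guides microglial processes, was at 8245 to 10995 CPM and 7468 to 11841 CPM (log2 fold change 0.05, SE 0.08, adjusted p = 0.905), and Cx3cr1, the fractalkine receptor, at 4276 to 5836 CPM and 3945 to 5749 CPM (log2 fold change −0.16, SE 0.08, adjusted p = 0.409). Ranges overlapped almost fully for these 3 genes.

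**Figure D5:**
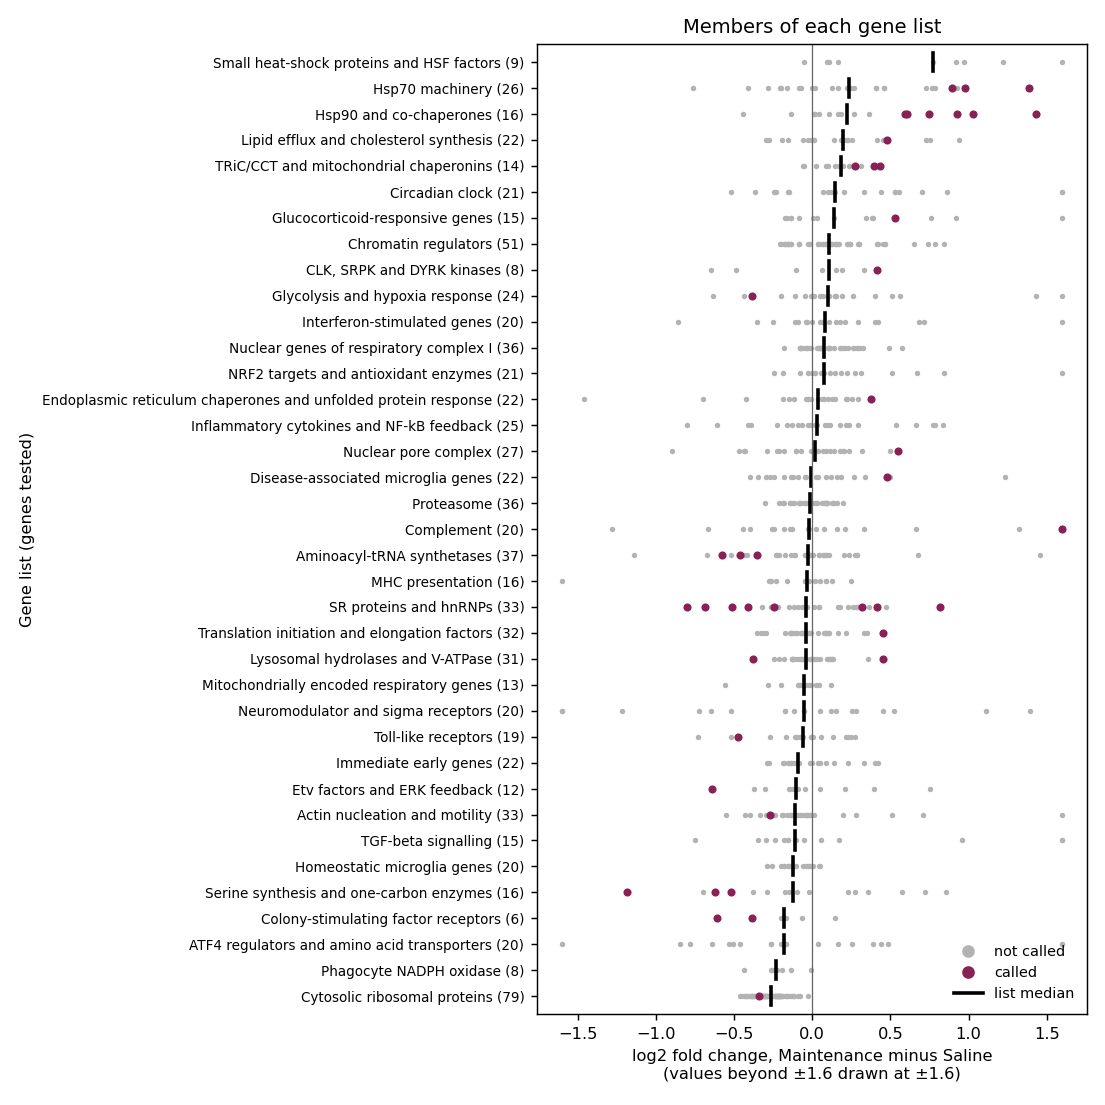
Log2 fold changes of Maintenance against Saline for every tested member of the gene lists with at least 6 tested members, other than the marker lists of other cells, ordered by the list's median (black bar; number tested in brackets; called genes in dark red). The chaperone lists hold 13 of the genes called higher, SR proteins and hnRNPs have called genes on both sides, and the 79 ribosomal protein genes all lie to the left of 0.

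A few of the largest fold changes, all of genes outside the core, rested on single libraries or on counts near 0. Enpp2 (log2 fold change 5.44, adjusted p = 0.048), Sostdc1 (12.98, adjusted p = 0.0473), Ociad2 (4.25, adjusted p = 0.0359) and Cd55 (7.79, adjusted p = 0.0496) were called higher with Maintenance 8 at 31127, 909.6, 211 and 32.2 CPM. In the other 7 Maintenance libraries they reached at most 318, 0.651, 9.99 and 3.89 CPM. Enpp2 is made by both choroid plexus and oligodendrocytes and Sostdc1 is a choroid plexus gene, and Maintenance 8 is the library with the choroid plexus markers described above, while its oligodendrocyte markers other than Enpp2 were at 4713 CPM, under those of the other 7 Maintenance libraries. Without Maintenance 8 the log2 fold change of Enpp2 was 1.21 (adjusted p = 0.159), that of Ociad2 1.33 (0.157) and that of Cd55 5.30 (0.165), and Sostdc1 had too few counts to be tested. Fmo2, a flavin monooxygenase, was highest in Maintenance 6 at 38.5 CPM (log2 fold change 2.58, adjusted p = 0.0243) and was lost without Maintenance 6, Saline 2 or Saline 3 (0.0532 to 0.0676). In the other 7 Maintenance libraries Fmo2 was at 1.02 to 12.7 CPM. Maintenance 6 also had the highest sums of endothelial and mural markers (2074 CPM) and of border-associated macrophage markers (544 CPM). The part of those cells in the Fmo2 result was not tested. Rgs6, a regulator of G-protein signalling, had 389 counts over 7 Saline libraries and 0 in all 8 Maintenance libraries. With 3 counts over the Maintenance group as the limit that a count of 0 allows, its pooled level was at least 141-fold lower. That limit holds counting error only and leaves out the spread between libraries. Rgs6 was also at 0 in Saline 6 and in Abstinence 2 and 3. Its Saline level was at most 1.57 CPM, and the call was lost without Saline 3 (adjusted p = 0.0539). Limma voom, the replicate block, the fit without Maintenance 6, 7 and 8 and the 17 libraries of the second table also lost it.

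Overlapping genes add a further limit, since the sources used here do not say whether strand was used in counting. Of the 114 called genes, 38 overlap another tested gene, and in 36 of these no overlapping gene was called. The exception is Zeb2, a transcription factor that microglia need for their identity, and the antisense RNA Zeb2os. Zeb2 was higher (log2 fold change 0.39, SE 0.08, adjusted p = 0.019; 0.0522 without Saline 3) and Zeb2os lower with no overlap between groups, at 11.2 to 21.5 CPM in Saline and 5.66 to 10.8 CPM in Maintenance (log2 fold change −0.78, SE 0.18, adjusted p = 0.0321). Zeb2os was lost without Saline 2, 3, 4 or 7 or Maintenance 1 or 4 (0.052 to 0.0895), so that both genes are outside the core, and reads of the pair cannot be told apart without strand. Neither Zeb2 (0.36, adjusted p = 0.167) nor Zeb2os (−0.79, adjusted p = 0.154) passed with the marker covariates.

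Libraries can also be compared by how many called genes they placed beyond the whole other group. Of the 54 higher genes, each Maintenance library exceeded every Saline library in 43 to 50, with Maintenance 8 at the low end and Maintenance 6 at the high end. Of the 60 lower genes, each Maintenance library lay under every Saline library in 41 to 56, with Maintenance 5 lowest and Maintenance 8 highest. In the Saline group, Saline 6 stood out for the higher genes, lying under every Maintenance library in 37 of 54, and Saline 8 for the lower ones, lying above every Maintenance library in 36 of 60. These counts were made on the genes chosen by the same libraries and carry no test.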

How the data were processed

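A low-input kit turned total RNA of isolated microglia into libraries, according to the labels' protocols. The submitters' processing notes list STAR 2.7.10a, StringTie 2.1.5, DESeq2 1.38.3, cutadapt 1.18 and Trim Galore 0.6.7, with mm10 (GRCm38) as the genome; order, settings, strand and the handling of reads shared by similar genes are not given in the sources used here. The deposited table holds raw counts of reads per gene (whole numbers, 35976 genes, 23 libraries), named by symbol. A second deposited table, called normalized, held the same counts for 17 libraries (0 of 611592 values differed) and served only to choose 1 alternative.

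From these counts, genes were kept with edgeR 4.0.16 (filterByExpr by group, minimum count 10, minimum total 15) under R 4.3.3, which left 16121. TMM factors, estimateDisp, glmQLFit (robust) and glmQLFTest were applied to all 23 libraries with group as the only factor, and Maintenance was contrasted with Saline. Genes were called at a Benjamini-Hochberg adjusted p under 0.05. Fold changes come from the fit, SE is the log2 fold change over the square root of F, and CPM are TMM-scaled. The procedure was tested on simulated data. The depth of the 16 libraries, 54970954 to 94562470 counts, bounds a gene with 0 counts at 0.0546 CPM (3 counts in the shallowest library, counting error only). The common biological coefficient of variation came to 0.831.

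Genes named are the called genes, the members of 49 lists that were called or had the smallest p, and a few fixed markers; lowest, median and highest values are given for the strongest calls whose mean log2 CPM was 2 or more. The comparison, its genes and the lists were chosen with earlier results of these data known, and symbols of mitochondrial genes and of Nup58 were matched to the table after it was seen. Some called genes are counted but not reported by name here. Of 1002 list entries, 1001 are in the table. Positions and promoters are from RefSeq (GRCm38.p6), which matched 15646 tested and 113 called genes. Promoter windows were not found for Hspa8, Hsp90ab1, Hsp90aa1, Cct4 or Rbm3. Alternatives were other scaling, filters and tools (DESeq2 1.42.0, limma 3.58.1), a replicate block, fewer libraries and marker means as covariates, with and without Enpp2 and Csf3r in them.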

Additional observations from a re-analysis of the deposited data

Results flagged for a closer look

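In 286 sets of 8 libraries (1 gene, marker list or library measure in 1 group), 45 (15.7%) had a highest or lowest library far from the other 7. No library measure, such as total counts, was among the 45. Chance flags about 1 in 20 where values are normally distributed, and its rate for skewed values such as these was not measured. All values are CPM, summed over the list for markers.

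Maintenance 8 gave 13 of these. It was high for Enpp2 (31127, the others 104 to 318), Sostdc1 (909.6, at most 0.651), Ociad2 (211, at most 9.99), Cd55 (32.2, at most 3.89), Hist1h2bc (202, at most 87.2), Dynll1 (188, at most 135), choroid plexus and ependymal markers (43916, at most 20.9), oligodendrocyte markers (35841, at most 10637, of which Enpp2 made up 31127) and striatal neuron markers (378, at most 89.4, of which Ppp1r1b made up 369.8). Without these single genes the sums of Maintenance 8 were 4713 and 8.34, under the other 7 (at least 6568 and 14.6). It was low for Glul (647, the others at least 845), Srsf7 (156, at least 218), Zeb2 (205, at least 262) and homeostatic microglia genes (57528, at least 71430).

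Maintenance 6 was high for Fmo2 (38.5, the others at most 12.7), Cct4 (361, at most 280.3), Smc6 (72.0, at most 54.6), Eif4a2 (349, at most 312), Gtf2f1 (60.5, at most 36.1), Dph5 (18.7, at most 14.5) and monocyte markers (113, at most 53.0), and low for Ptbp1 (58.3, at least 77.9) and Aldh18a1 (8.39, at least 15.7). Maintenance 7 was high for Trmt1l (141, at most 87.8) and Pdk1 (200.4, at most 146) and low for Nubp1 (10.2, at least 21.2) and Zeb2os (5.66, at least 8.39). Maintenance 3 was high for Tsc22d3 (1226, at most 915), Maintenance 4 for Sh2b2 (20.8, at most 16.7) and Maintenance 5 for Acox3 (80.4, at most 61.2).

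Among Saline libraries, Saline 6 was high for Banp (28.2, at most 17.8), Fkbp5 (124, at most 62.7), monocyte markers (234, at most 102) and neutrophil markers (1256, at most 712). Saline 8 was high for Enpp2 (268, at most 107), Ociad2 (3.33, at most 1.65) and oligodendrocyte precursor markers (65.0, at most 19.8), and low for Csf2ra (66.4, at least 82.2), Prkab1 (153, at least 166) and Tbxas1 (243, at least 264). Saline 7 was high for Eya4 (51.5, at most 37.6) and Esco1 (50.6, at most 38.9). Saline 4 was high for Pik3cd (53.1, at most 44.1) and low for Gm42035 (21.7, at least 24.0). Saline 1 alone had counts of Cd55 (0.153) and Saline 3 alone of Sostdc1 (0.0979), with the other 7 at 0.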

How the results depend on the processing

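The 114 calls (54 higher, 60 lower) numbered 433 (228, 205) with DESeq2, 413 (214, 199) with limma voom and quality weights, 176 in the 17 libraries of the second table (123, 53), 57 with only the 2 groups in the fit (36, 21), and 53 with oligodendrocyte and neutrophil marker means as covariates (35, 18), or 51 (31, 20) with Enpp2 and Csf3r left out of those means, a fit chosen after seeing the data and not among the 35. Of the 114, DESeq2 kept 112, limma voom 103, the 17 libraries 65, the fit of 2 groups 53 and the covariates 39. The 17 libraries leave out Saline 5, 6 and 8 and Maintenance 6, 7 and 8. The 49 calls lost there include the core genes Hspa5, Hnrnpk and Acin1. Requiring 1 CPM throughout a group gave 89 higher and 64 lower genes, and 32 lower genes were called without Maintenance 6, 7 and 8. Leaving out 1 library gave 42 to 197 calls, 23 to 102 higher and 19 to 95 lower. The genes whose groups do not overlap numbered 67, 69 to 103 without 1 library (103 without Maintenance 8) and 191 without Maintenance 6, 7 and 8, where 5 libraries face 8. RLE and upper-quartile factors, no filter and a fit without robust estimation kept the total within 1.5 times. The cause of these differences was not tested, other than that fewer libraries or genes entered some fits.

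With the replicate number as a replicate block, 69 genes were called (34 higher, 35 lower), 60 of them among the 114. Same-numbered Maintenance and Saline libraries correlated by −0.03 to 0.09 in their deviations from the group means, and 0 of 8 correlated best with their own number, so that the numbers were not taken to pair the samples.

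Among the 114 genes no fit turned a direction: 3010 of 3974 values in the alternatives stayed called and 964 did not. Among the uncalled genes named, the log2 fold change turned for Tnf with limma voom (0.00918), without Maintenance 6, 7 and 8 (0.0149) and in the 17 libraries (0.0256), for Fkbp5 in the 17 libraries (0.15), with the covariates (0.23, and 0.203 without Enpp2 and Csf3r in them) and without Saline 6 (0.0882, with −0.222 as the lowest value, without Maintenance 7), for Nr1d1 in the 17 libraries (0.00513) and for Fos with the covariates without Enpp2 and Csf3r (−0.00321). The sign of the fold changes of complex I genes also depended on 1 library, with a list median of 0.08 in all libraries and −0.14 without Maintenance 8. Low genes are limited by depth: of the 35976 genes, 16121 could be tested.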

Other observations

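Further called genes outside the core of 41, picked after their values were seen, are given here. Lower in Maintenance were 2 enzymes of eicosanoid synthesis, Tbxas1 (thromboxane synthase, log2 fold change −0.35, adjusted p = 0.0285) and Alox5 (5-lipoxygenase, −0.56, adjusted p = 0.0302), and, outside the lysosomal list, the lysosomal enzyme gene Naglu (−0.56, adjusted p = 0.0286) and the peptide transporter gene Slc15a3 (−0.43, adjusted p = 0.0359). Also lower were Pik3cd, a catalytic PI3-kinase subunit (−0.47, adjusted p = 0.0473) and Rbck1 of the linear ubiquitin ligase (−0.45, adjusted p = 0.0198). Higher were Tbk1, a kinase upstream of interferon induction (0.32, adjusted p = 0.0466), Sgk3 (0.44, adjusted p = 0.0243) and Ncor1, a co-repressor of nuclear receptors (0.48, adjusted p = 0.0261). Interferon-stimulated genes gave 0 calls of 20 with edgeR, DESeq2 and limma voom, and 1 had an unadjusted p under 0.05. Each of these 9 called genes lost its call without Saline 3, and for Rbck1 (adjusted p = 0.055) and Sgk3 (adjusted p = 0.0572) it was the only library whose removal did so.

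Of the 20 neuromodulator and sigma receptor genes tested, 0 passed with edgeR, 4 had an unadjusted p under 0.05, and DESeq2 and limma voom each called 1 higher and 1 lower. Adora1, the adenosine A1 receptor, was at 0.790 to 5.96 CPM in Saline and 4.29 to 17.3 CPM in Maintenance (log2 fold change 1.39, SE 0.35, adjusted p = 0.0575), and all 8 Maintenance libraries exceeded the Saline median. Hrh2, the histamine H2 receptor, was at 13.5 to 18.6 CPM and 3.81 to 13.8 CPM (log2 fold change −0.72, SE 0.19, adjusted p = 0.0699). Neither passed with edgeR.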
